A study of Mus musculus with 7 samples.

Results

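The globin genes and Alas2 of the mouse were examined here across 7 RNA-seq libraries made from sorted cells of the embryonic neocortex. The members were the rows of the gene count table whose Ensembl identifier carries the symbol Hba-a1, Hba-a2, Hba-x, Hbb-bt, Hbb-bs, Hbb-bh1, Hbb-y or Alas2, and all 8 were found among the 38124 genes listed. They were chosen for what they encode, as a gauge of how much blood RNA accompanied the sorted cells.

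The libraries fall into 3 labelled Control (replicates 1, 2 and 4 by their titles) and 4 labelled Sox9 (replicates 1 to 4). All came from Tis21-CreERT2 embryos, which per the study's methods were heterozygous for the Cre line and received tamoxifen on the day of electroporation and on the day before it. The neocortex was electroporated in utero at E13.5 with a control construct or with a construct for conditional Sox9 expression, both of which turn on nuclear RFP after Cre acts, and the tissue was collected 48 h later, at E15.5. The Cre is driven from Tis21, a gene of progenitors that have turned to producing basal progenitors or neurons, and both groups carry the Cre allele, the drug and RFP. Cortices of several embryos from several mothers were pooled and dissociated, and the cells with high RFP were isolated by fluorescence-activated cell sorting. Per the methods, gates on scatter for the size and shape of live cells were set before the RFP gate. How many red cells pass these gates was not tested.

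The libraries held between 4429704 and 12907778 counts in genes, so 3 counts, taken as the limit that a count of 0 allows, correspond to 0.261 to 0.629 CPM (counts scaled to a library total of 1000000, here with TMM factors of 0.893 to 0.941 in the Control libraries and 1.01 to 1.1 in those labelled Sox9). The neural identity of the sort was plain in the data: 12 neural markers summed to between 10200 and 14000 CPM, led by Tubb3, a neuronal tubulin, and Neurod6, a transcription factor of cortical neurons, and 3 of them, the progenitor genes Pax6, Vim and Eomes (log2 fold change -2.25, adjusted p = 4.87e-05), were lower in the Sox9-labelled libraries at an adjusted p under 0.01. The targeted gene was not higher in the libraries that bear its name. Sox9 had 362, 1026 and 668 counts in Control 1, 2 and 4 and 370, 435, 277 and 177 counts in the libraries labelled Sox9 1 to 4, a log2 fold change of -0.68 ± 0.25 (SE; edgeR quasi-likelihood test, adjusted p = 0.0493), and the groups are therefore named by label throughout ("Sox9-labelled 3" for the library labelled Sox9, replicate 3). Per the methods the construct carries only the coding sequence of Sox9, ahead of an IRES and RFP, so its transcript could add to the Sox9 count over that sequence alone, and the count is a limited check of the labels.

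Hemoglobin is a tetramer of alpha-like and beta-like globin chains, each holding a heme. In the mouse, the primitive red cells that arise in the yolk sac express the embryonic chains (Hba-x, the zeta chain, and Hbb-y and Hbb-bh1) together with the adult alpha chains, whereas definitive red cells from the fetal liver express the adult chains Hba-a1, Hba-a2, Hbb-bs and Hbb-bt. Both kinds circulate in the fetus around mid-gestation, the former giving way to the latter. Alas2 is the erythroid form of the enzyme that starts heme synthesis. Neurons and their progenitors are not known for making hemoglobin in quantity, and blood vessels run through the dissected tissue.

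The alpha-like genes lie in 1 cluster, in the order Hba-x, Hba-a1, Hba-a2 on the plus strand (GRCm38, chr11:32276400-32278116, chr11:32283511-32284465 and chr11:32296489-32297298). The beta-like genes lie in another, on the minus strand, with Hbb-y (chr7:103851749-103853216) first in the direction of transcription, then Hbb-bh1 (chr7:103841637-103843164), Hbb-bs (chr7:103826534-103828096) and Hbb-bt (chr7:103812524-103813996). Alas2 lies on the plus strand of the X chromosome (chrX:150547375-150570638). The 150 bases before the RefSeq start site are printed below for an adult and an embryonic member of each cluster (5′ to 3′ on the coding strand, GRCm38.p6). Whether these sequences bear on the counts was not tested. Capitals mark CACCC and CCAAT, or their reverse complements.

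Hba-a1, chr11:32283522-32283671, plus strand: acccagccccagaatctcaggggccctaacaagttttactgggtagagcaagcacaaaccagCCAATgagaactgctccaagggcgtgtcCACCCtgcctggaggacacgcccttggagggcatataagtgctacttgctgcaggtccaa
Hba-x, chr11:32276450-32276599, plus strand: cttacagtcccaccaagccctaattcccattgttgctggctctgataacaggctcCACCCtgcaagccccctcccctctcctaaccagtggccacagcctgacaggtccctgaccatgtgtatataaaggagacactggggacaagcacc
Hbb-bs, chr7:103827929-103828078, minus strand: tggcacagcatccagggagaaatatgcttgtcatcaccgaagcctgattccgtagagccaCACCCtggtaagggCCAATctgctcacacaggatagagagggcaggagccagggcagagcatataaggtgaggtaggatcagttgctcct
Hbb-y, chr7:103853208-103853357, minus strand: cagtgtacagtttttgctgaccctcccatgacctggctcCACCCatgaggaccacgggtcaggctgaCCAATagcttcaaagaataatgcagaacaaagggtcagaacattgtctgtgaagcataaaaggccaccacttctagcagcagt

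The windows of Hba-a1, Hba-x and Hbb-bs lie within the GENCODE vM21 spans of these genes, whose annotated starts reach further upstream. Promoter sequence was found for 7 of the 8 members (not for Hbb-bh1). CACCC, searched on both strands, occurred in all 7 and CCAAT in 5, the exceptions being Hba-x and Alas2. GATAA, searched likewise, occurred in Hba-x and Alas2 alone, and TATAA in all of the 7 but Hbb-y and Alas2. Among 32851 RefSeq promoters of the same length, 37.4% held CACCC, 24.5% held CCAAT and 8.7% held both. For GATAA and TATAA the shares were 13.3% and 14.2%. The windows of Hba-a1 and Hba-a2 shared an unbroken stretch of 147 of 150 bases, whereas those of Hbb-bs and Hbb-bt shared at most 14. Adult and embryonic members of the same cluster shared at most 10 bases in a row.

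The likeness of the adult copies extends to their transcripts and limits how reads can be assigned. Of the 75-base windows along each mRNA, the length of the reads, 37.8% of those of Hba-a1 and 19.0% of those of Hba-a2 were found in no other gene, the rest being shared between both copies. For Hbb-bt and Hbb-bs the values were 43.4% and 35.7%, again shared only with each other, while every window of Hba-x, Hbb-bh1 and Hbb-y was unique. How reads with several equal matches were counted is not given in the sources used here, so the split between Hba-a1 and Hba-a2, and between Hbb-bs and Hbb-bt, is uncertain. If such reads were left out of the table, the adult counts and the ratios of adult to embryonic genes given below are too low. The ratios of alpha to beta genes would be shifted too. The counts of the embryonic genes do not depend on it. Alas2 had 87.9% unique windows. The remainder were shared with Apex2, a DNA repair gene whose annotated span on the opposite strand (chrX:150519519-150589868) covers all of Alas2 and which had 124 to 452 counts per library. Without knowing whether counting used strand, reads of Alas2 and Apex2 cannot be told apart in that stretch.

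Globin transcripts were present in every library at a low level that varied widely. The 7 globin genes together had 11, 269 and 121 counts in Control 1, 2 and 4, and 95, 669, 783 and 97 in Sox9-labelled 1 to 4. In CPM without TMM scaling this was 0.949 (95% exact interval 0.474 to 1.7), 20.8 (18.4 to 23.5) and 11.6 (9.59 to 13.8) for Control. For the Sox9-labelled libraries it was 14.2 (11.5 to 17.4), 63.6 (58.9 to 68.6), 95.6 (89.0 to 103.0) and 21.9 (17.8 to 26.7). All intervals here and below cover counting error only, since reads were amplified by PCR without molecular identifiers. Sox9-labelled 2 and 3 stood well above the other 5 libraries and Control 1 well below, and the ranges of both groups overlapped. The highest Control library exceeded the lowest 21.9-fold and the highest Sox9-labelled library the lowest 6.73-fold, against group means of 11.1 ± 9.93 (SD, n = 3) and 48.8 ± 38.0 (SD, n = 4) CPM. In bulk samples of this kind, fewer blood cells and less globin RNA per cell cannot be told apart.

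Of the adult alpha chains, Hba-a1 was counted 2, 65 and 18 times in Control and 21, 222, 217 and 25 times in Sox9-labelled 1 to 4. Hba-a2 was counted 2, 33 and 10 against 17, 172, 178 and 17 times. For both genes Sox9-labelled 2 and 3 were far above the rest, and Sox9-labelled 1, at 2.88 CPM for Hba-a1 and 2.33 CPM for Hba-a2, lay below Control 2, at 5.65 and 2.87 CPM. The log2 fold change (labelled Sox9 over Control) was 2.39 ± 0.75 (SE) for Hba-a1 with an adjusted p of 0.0259, and 2.95 ± 0.75 for Hba-a2 with an adjusted p of 0.0096 (edgeR quasi-likelihood test, Benjamini-Hochberg over 16522 genes). Hba-a2 was the only member past the threshold of 0.01 set for this comparison, and with the near-identical alpha rows added together the log2 fold change was 2.61 with an adjusted p of 0.0166, short of that threshold.

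Of the adult beta chains, Hbb-bs was counted 5, 138 and 11 times in Control and 34, 162, 229 and 46 times in Sox9-labelled 1 to 4. Hbb-bt was counted 1, 28 and 1 against 10, 99, 145 and 8 times. Control 2 thus held more Hbb-bs, at 12.0 CPM, than Sox9-labelled 1 and 4 at 4.67 and 9.65 CPM, and for both genes the groups overlapped. The log2 fold changes were 1.60 ± 0.73 (adjusted p = 0.107) for Hbb-bs and 3.00 ± 0.92 (adjusted p = 0.0233) for Hbb-bt, and for the beta rows added together 1.95 (adjusted p = 0.0647).

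The embryonic chains had another distribution. Hbb-y had 0, 2 and 60 counts in Control 1, 2 and 4, and 9, 13, 14 and 1 in Sox9-labelled 1 to 4. Hba-x had 1, 3 and 16 counts against 3, 0, 0 and 0, and Hbb-bh1 had 0, 0 and 5 against 1, 1, 0 and 0. For all 3 genes Control 4 was the highest library, with 62.8% of all embryonic globin counts (81 of 129), although its adult globin counts (40) were fewer than those of 5 of the other 6 libraries. For Hbb-y no difference beyond the spread between libraries was detected (log2 fold change -0.87 ± 0.98, adjusted p = 0.530). Hba-x and Hbb-bh1 did not pass the filter on low counts. Without that filter their log2 fold changes were -2.67 (adjusted p = 0.0403) and -1.29 (adjusted p = 0.491), neither past the threshold of 0.01. Pooled over libraries and scaled for depth, the rate of Hba-x counts was 6.62 times as high in Control (20 counts) as in the Sox9-labelled libraries (3 counts, 95% counting interval 1.96 to 34.8), and 16 of those 20 were in Control 4. For Hbb-bh1 the corresponding ratio was 2.48 (0.406 to 26.1).

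For Alas2, Control gave 9, 15 and 9 counts (0.86 to 1.3 CPM) and Sox9-labelled 1 to 4 gave 10, 25, 44 and 9 (1.37 to 4.92 CPM). It was the only member whose groups did not overlap in CPM, although the raw counts overlapped. The nearest libraries, Control 2 at 1.3 CPM and Sox9-labelled 1 at 1.37 CPM, had 15 and 10 counts. The log2 fold change of Alas2 was 1.37 ± 0.50 with an adjusted p of 0.0492. Among all genes tested, 22.9% had every Sox9-labelled library above every Control library, and 37.2% of the genes at the members' level did. Control 1 was the lowest library for Alas2 as for the summed globins, but with 9 Alas2 counts against 11 for all globins together, and part of its counts may belong to the opposite strand as described above.

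**Figure D1:**
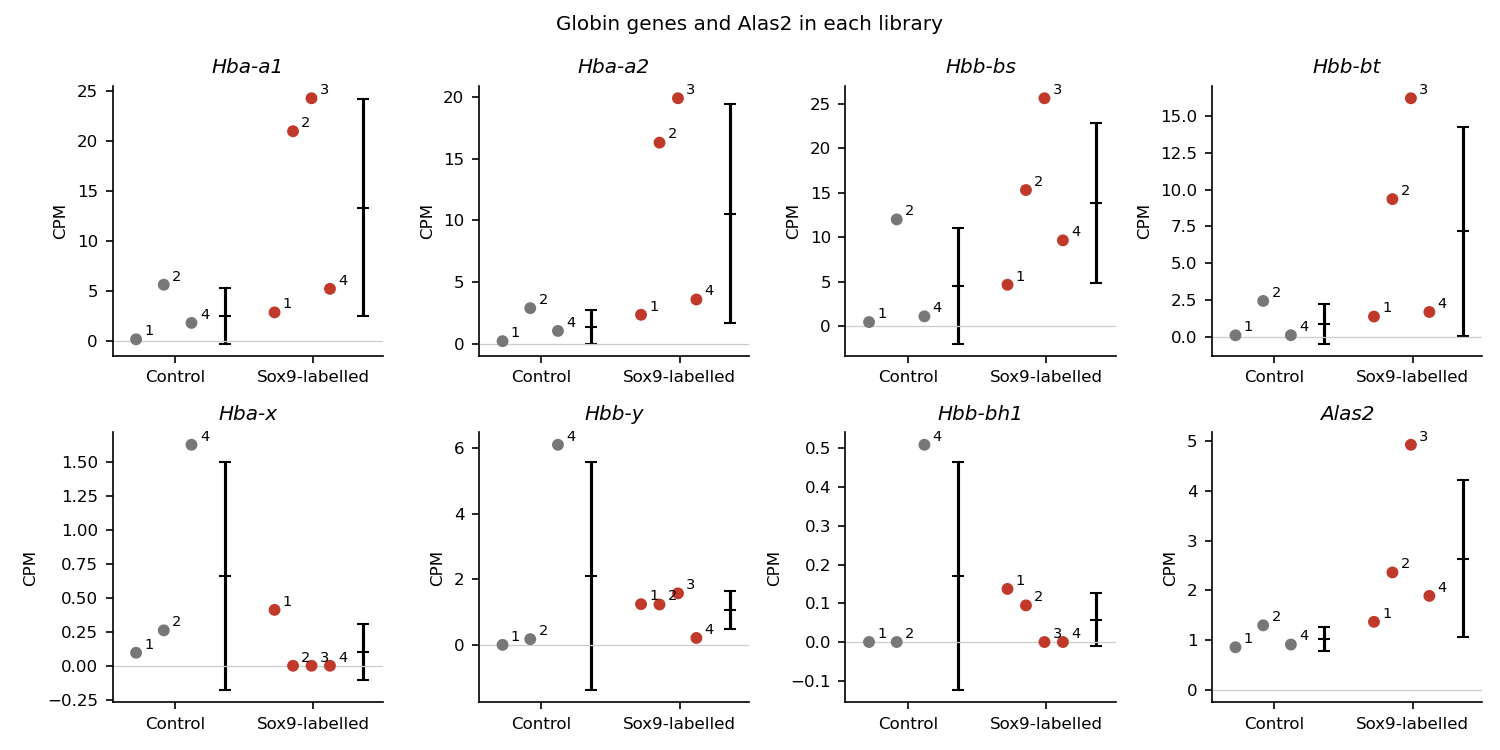
Each panel plots 1 gene, with CPM (TMM-scaled, linear axis) on the vertical axis and the 3 Control (grey) and 4 Sox9-labelled (red) libraries as points numbered by replicate. Black bars give mean ± SD of each group. The adult globins are highest in Sox9-labelled 2 and 3 and the embryonic globins in Control 4. The Alas2 points of the groups are apart, at 1.3 against 1.37 CPM where they come nearest.

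Compared per kilobase of exon, so that genes of unlike length can be set side by side, the median level over the 7 libraries was highest for Hbb-bs at 12.6 CPM per kb. Hba-a1 followed at 6.46, then Hba-a2 at 4.3, Hbb-bt at 2.39, Hbb-y at 1.94, Alas2 at 0.572, Hba-x at 0.102 and Hbb-bh1 at 0. Each gene's range over the 7 libraries overlapped that of its neighbours in this order. In Control 4 the order was another one, with Hbb-y first at 9.64 CPM per kb, ahead of Hba-a1 at 2.25, Hba-x at 1.74, Hba-a2 at 1.53 and Hbb-bs at 1.46.

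The share of embryonic chains differed widely between libraries of the same group. Of the beta-like counts, Control 4 had 84.4% embryonic (65 of 77, exact interval 74.4 to 91.7), whereas Control 2 had 1.19% (2 of 168, 0.144 to 4.23) and Control 1 had 0 of 6, which allows a share of up to 50.0%. Sox9-labelled 1 had 18.5% (10 of 54, 9.25 to 31.4), Sox9-labelled 2 had 5.09% (14 of 275, 2.81 to 8.39), Sox9-labelled 3 had 3.61% (14 of 388, 1.99 to 5.98) and Sox9-labelled 4 had 1.82% (1 of 55, 0.046 to 9.72). The interval of Control 4 lay apart from those of the other 6 libraries, and that of Sox9-labelled 1 from those of Control 2 and of Sox9-labelled 2 and 3. Stated as a ratio of raw counts, adult to embryonic beta chains were at 0.185 in Control 4 (0.0908 to 0.345), 83.0 in Control 2 (22.6 to 691.0) and at least 2.0 in Control 1, against 4.4 (2.18 to 9.81), 18.6 (10.9 to 34.6), 26.7 (15.7 to 49.3) and 54.0 (9.29 to 2170.0) in Sox9-labelled 1 to 4.

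In the alpha cluster, too, Control 4 had the lowest ratio of the 7 libraries, with an interval that overlapped that of Control 1. Adult to embryonic alpha chains stood at 4.0 (0.396 to 197.0), 32.7 (10.9 to 161.0) and 1.75 (0.915 to 3.46) in Control 1, 2 and 4. In Sox9-labelled 1 the ratio was 12.7 (4.02 to 64.1). Hba-x was at 0 in Sox9-labelled 2, 3 and 4, so there the ratio was at least 131, at least 132 and at least 14, taken against 3 counts. Pooled over each group, the ratio of adult to embryonic beta chains was 2.75 in Control and 18.8 in the libraries labelled Sox9, but the pooled Control value joins Control 2, which held 84.1% of the Control adult globin counts (264 of 314), with Control 4, and describes neither.

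**Figure D2:**
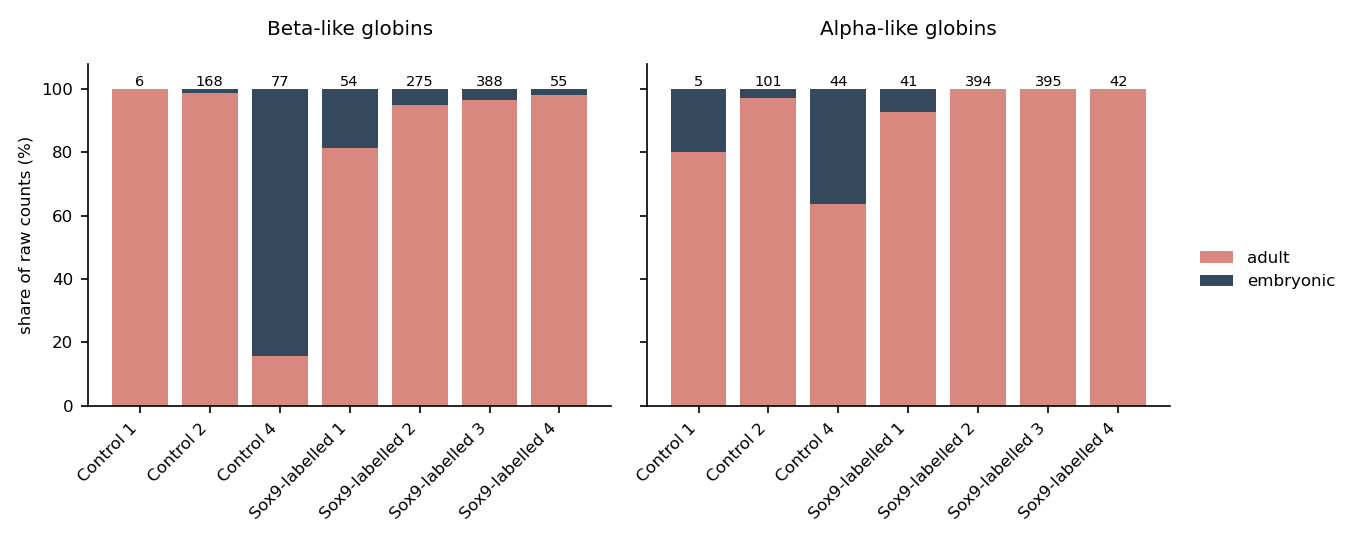
Stacked bars give the percentage of raw counts in adult and embryonic genes for the beta-like globins (left) and the alpha-like globins (right) in each library, with the total count behind each bar above it. Control 4 has the largest embryonic share in both panels, at 84.4% of 77 and 36.4% of 44 counts, and the bars of Control 1 rest on 6 and 5 counts.

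The ratio of alpha-like to beta-like counts varied less than the globin level. It was 0.833 (0.201 to 3.28), 0.601 (0.465 to 0.774) and 0.571 (0.385 to 0.838) in Control 1, 2 and 4. In Sox9-labelled 1 to 4 it was 0.759 (0.493 to 1.16), 1.43 (1.23 to 1.68), 1.02 (0.883 to 1.17) and 0.764 (0.499 to 1.16). Only in Sox9-labelled 2 did the interval lie above 1, and only in Control 2 and 4 below 1. The group means were 0.669 ± 0.143 (SD, n = 3) and 0.993 ± 0.317 (SD, n = 4), with overlapping ranges. These ratios compare raw counts and are not corrected for gene length or for the unlike shares of unique windows. Among adult genes alone, alpha to beta was 2.33 (1.15 to 5.04) in Control 4, above 1. It was 0.59 (0.455 to 0.762) in Control 2 and 1.51 (1.29 to 1.77) in Sox9-labelled 2. In the other libraries it ran from 0.667 to 1.06, with intervals that held 1. Over all globins, the pair of libraries richest in globin also had the highest alpha to beta ratios, whereas among adult genes alone Control 4 had the highest.

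Within the beta pair, Hbb-bs made up 83.3% of the adult beta counts in Control 1 (5 of 6), 83.1% in Control 2 (138 of 166, exact interval 76.6 to 88.5) and 91.7% in Control 4 (11 of 12). It made up 77.3% in Sox9-labelled 1 (34 of 44, 62.2 to 88.5), 62.1% in Sox9-labelled 2 (162 of 261, 55.9 to 68.0), 61.2% in Sox9-labelled 3 (229 of 374, 56.1 to 66.2) and 85.2% in Sox9-labelled 4 (46 of 54, 72.9 to 93.4). The intervals of Sox9-labelled 2 and 3 lay below those of Control 2 and Sox9-labelled 4, so that the proportion of both copies differed between libraries of 1 group beyond counting error. The alpha pair showed no such difference, with Hba-a1 at 50.0% to 66.3% of the adult alpha counts and every pair of intervals overlapping.

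Between the groups, 1 of the 6 members tested passed the threshold with a higher level in the Sox9-labelled libraries and 0 with a lower one (5 higher and 0 lower at an unadjusted p under 0.05, and 0 in either direction at the same threshold by DESeq2). Of all 16522 genes tested, 11.3% were called higher and 3.43% lower. Among the 5471 genes between the lowest and highest average level of the members (0.83 to 3.33 log2 CPM), 21.6% were called higher and 1.3% lower, and their median log2 fold change was 0.55. Weakly expressed genes as a whole stood higher in the libraries labelled Sox9: the median log2 fold change was 1.10 over the 7584 genes under an average of 3 log2 CPM and -0.20 over the 8938 genes at or above it. The 4 adult globins, at 1.60 to 3.00, lay above the median of genes at their level, Alas2 at 1.37 near that of its own neighbours (1.25), and Hbb-y at -0.87 below (1.35). With cyclic loess, which removes such a trend with level, 0 members were called (3 at an unadjusted p under 0.05), and 2.2% of all genes were called higher. The log2 fold changes of the adult globins were then 2.08 (Hba-a1), 2.06 (Hba-a2, against 2.95 in the main analysis), 2.09 (Hbb-bs, against 1.60) and 1.85 (Hbb-bt, against 3.00), with adjusted p from 0.103 to 0.203, and that of Alas2 was 0.04.

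**Figure D3:**
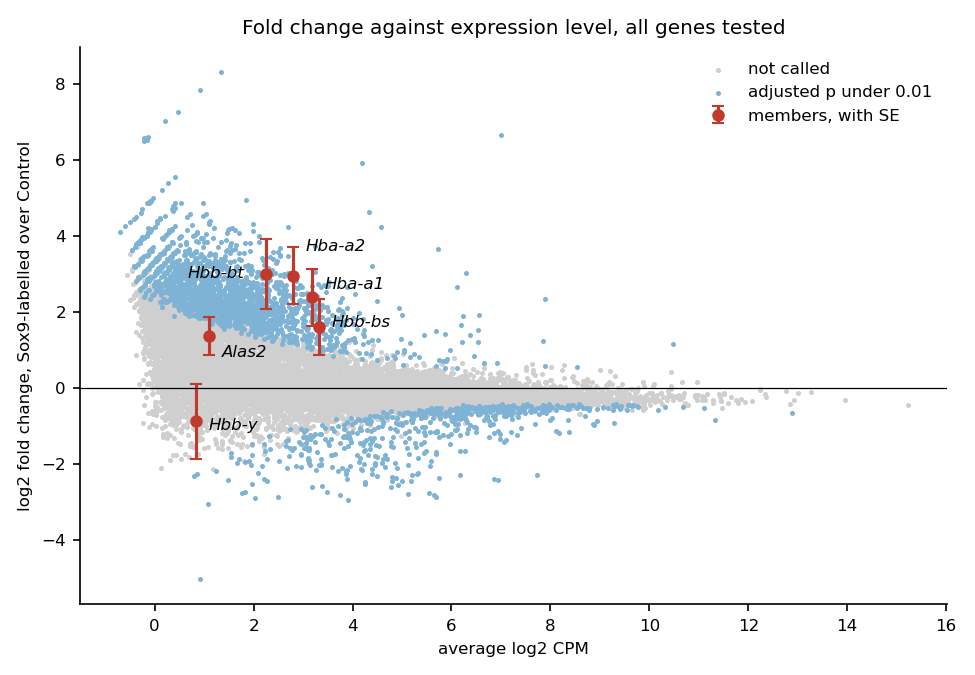
The log2 fold change of each of 16522 genes (vertical axis) is plotted against its average log2 CPM (horizontal axis), with genes past an adjusted p of 0.01 in blue and the 6 members tested in red with SE. Genes under 3 log2 CPM lie mostly above 0; Hba-a2 is the only member past the threshold and Hbb-y lies below 0.

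The globins spread widely between libraries of the same group. The biological coefficient of variation that edgeR estimated was 0.647 for Hba-a1, 0.607 for Hba-a2, 0.763 for Hbb-bt, 0.654 for Hbb-bs and 0.895 for Hbb-y, against medians of 0.235, 0.257, 0.291, 0.228 and 0.359 over genes within 0.5 log2 CPM of each. The share of those genes with a dispersion as large was 0.055% for Hba-a1, 0.109% for Hba-a2 and 0% for Hbb-bt, Hbb-bs and Hbb-y. Alas2, at 0.386 against a median of 0.35, was exceeded by 30.8% of its neighbours. These values describe the same 7 libraries and carry no test.

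Single libraries decided which members were called. Without Control 2, the Control library richest in adult globin, all 4 adult globins were called, with log2 fold changes from 3.76 for Hba-a1 to 6.05 for Hbb-bt and an adjusted p of 0.000966 for Hbb-bs. Without any 1 of Control 1, Control 4, Sox9-labelled 2 or Sox9-labelled 3, 0 members were called (3 to 5 at an unadjusted p under 0.05), and the adjusted p of Hba-a2 was between 0.025 and 0.0379. Without Control 4, the log2 fold change of Hbb-y turned from -0.87 to 3.45 (adjusted p = 0.0261). With Sox9-labelled 2 and 3 left out together, a choice made after seeing the data, the adult globins had log2 fold changes of 0.62 to 1.08, the adjusted p of Hba-a2 was 0.368, and 0 members were called (0 at an unadjusted p under 0.05). These 2 libraries held 74.3% of all adult globin counts (1424 of 1916).

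**Figure D4:**
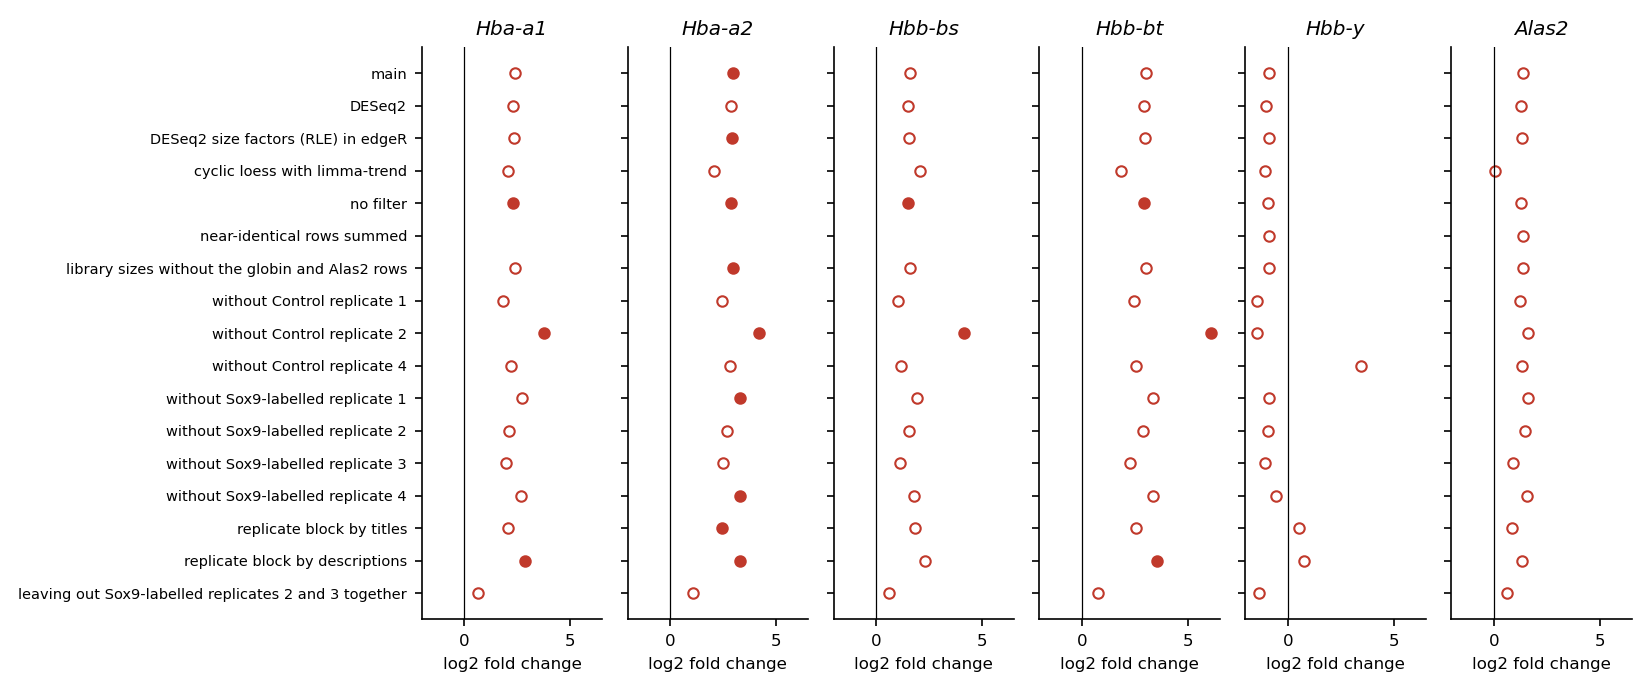
Each panel shows 1 member, with its log2 fold change (labelled Sox9 over Control) on the horizontal axis under each way of processing listed on the left; filled points have an adjusted p under 0.01. The looser threshold, which shares the main fit, and the filter of 10 counts, which leaves no member, are not drawn. Hba-a2 is filled in 9 of the rows drawn, counting the main fit, and Hbb-y lies to the right of 0 without Control replicate 4 and with either replicate block; the paired alpha and beta rows have no point of their own where near-identical rows were summed.

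The other genes of the red cell program and 3 globins of other tissues were read next, from 7 lists with 78 genes. Of these, 77 were matched and 55 passed the filter on low counts. Of those 55, 13 (23.6%) were called higher and 0 lower (20 higher and 10 lower at an unadjusted p under 0.05, and 17 called higher and 3 lower by DESeq2, which gave a p for 75), with a median log2 fold change of 0.14 against 0.00 over all genes tested. Most of the calls were among weakly expressed genes: 12 of the 25 genes under an average of 3 log2 CPM were called (48.0%, against 21.8% of all genes there), and 1 of the 30 above it (3.33%, against 2.3%). With cyclic loess 3 were called higher, and with Sox9-labelled 2 and 3 left out 1 was (16 higher at an unadjusted p under 0.05).

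Of the other globin genes, Hbq1b, a theta-like gene of the alpha cluster, was counted 1, 0 and 1 times in Control and 10, 7, 8 and 7 times in Sox9-labelled 1 to 4 (rate ratio 16.1 over pooled counts, counting interval 4.11 to 139.0, adjusted p = 0.0035), so that it was evenly spread where the adult alpha genes were not. With cyclic loess its log2 fold change went from 3.80 to 0.36 (adjusted p = 0.627). Its 4 companions on that list had too few counts to be tested. The globins of other tissues, Ngb of neurons and Cygb, were not called by edgeR, with log2 fold changes of 3.27 (adjusted p = 0.0101) and -0.25 (adjusted p = 0.423). Ngb lay at the threshold and was called by DESeq2 (3.29, adjusted p = 0.00657), and with cyclic loess it was at 0.71 (adjusted p = 0.428).

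Of 14 genes of heme synthesis and transport, 1 was called. Cpox, a mitochondrial enzyme late in the pathway, was counted 24, 29 and 28 times in Control against 73, 68, 75 and 49 times, with no overlap (log2 fold change 1.77, adjusted p = 0.00118; 1.35 and 0.00587 with cyclic loess). Alas1, the housekeeping counterpart of Alas2, was far more abundant than it, at 12.8 ± 1.01 CPM per kb of exon (SD, n = 3) in Control against 0.427 ± 0.1 for Alas2, with a log2 fold change of -0.29 (adjusted p = 0.109). Ppox, the enzyme after Cpox, had the highest CPM of the list, not corrected for length, and a log2 fold change of -0.52 (adjusted p = 0.0331).

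Of the erythroid transcription factors, 2 of 6 tested were called. Gata1, the master regulator of red cells and megakaryocytes, was counted 3, 4 and 0 times in Control against 18, 18, 41 and 11 times (log2 fold change 3.59, adjusted p = 0.0020), and Gfi1b, a repressor that acts with it, had 0, 7 and 1 against 42, 53, 55 and 10 (4.21, adjusted p = 0.000882). Neither gene's groups overlapped. With cyclic loess the log2 fold changes were 1.46 for Gata1 (adjusted p = 0.0615) and 2.41 for Gfi1b (adjusted p = 0.00993). Klf1, the activator of the adult beta gene, did not follow, with 8, 4 and 1 counts against 6, 6, 2 and 1, too few to be tested. The broadly expressed cofactors Ldb1 and Cbfa2t3 had log2 fold changes of -0.13 and -0.16. Of 7 regulators of the switch from embryonic to adult globin, Lin28b was called (2.67, adjusted p = 0.00785) with 3, 1 and 3 counts against 16, 9, 9 and 10, but with cyclic loess it was at 0.37 (adjusted p = 0.632), whereas the abundant Nfix and Bcl11a, which neural cells express too, had values of -0.07 and -0.32.

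Of 13 membrane and skeleton genes tested, 6 were called, among them Sptb, a spectrin of the membrane skeleton, Rhag and Rhd of the Rh complex, Tmod1, which caps actin filaments, and Cd36, a fatty acid receptor also found on platelets, macrophages and capillaries. The log2 fold changes of these 5 ran from 1.84 (Rhd, adjusted p = 0.00776) to 3.00 (Cd36, adjusted p = 0.00189), and with cyclic loess from 0.61 (Rhd, adjusted p = 0.288) to 1.63 (Cd36, adjusted p = 0.0336), where none of the 5 was called. Rhag was counted 4, 9 and 2 times in Control against 20, 29, 38 and 19 times, with no overlap of the groups. Several markers that define the red cell were near 0 in all 7 libraries: Slc4a1, the anion exchanger, had 1 to 9 counts, Epb42 1 to 9, and Icam4 0, and none was tested. Add2 and Epb41, which neurons express as well, had log2 fold changes of -0.13 and -0.20. Among 12 further genes tested, 2 were called, among them Isg20 (2.69, adjusted p = 0.00676, and 1.18 with an adjusted p of 0.169 with cyclic loess), and the abundant Prdx2 and Bnip3l had values of -0.28 and -0.38.

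Markers of other cells that share the vessels were summed in each library to set beside the globins. Nearly all of those tested lay under an average of 3 log2 CPM, where 21.8% of all genes were called higher, and with cyclic loess 0 endothelial, platelet or microglia markers were called in either direction (3, 2 and 0 higher, and 0, 0 and 1 lower, at an unadjusted p under 0.05). Among the endothelial markers, 2 of 10 tested were called (Flt1 and Kdr, both VEGF receptors, log2 fold changes 2.53 and 2.11). Their sum, without Slc2a1, which neural cells also express, was 7.36, 17.8 and 8.85 CPM in Control 1, 2 and 4 and 36.4, 31.0, 59.8 and 25.0 CPM in Sox9-labelled 1 to 4. The highest library of each group was thus also the highest in globin, but Sox9-labelled 1, the lowest of its group in globin, was second. The platelet markers had 2 of 3 tested called (Pf4, a platelet chemokine, 2.95, and Clec1b, 1.99, but not Itga2b, 1.41 with an adjusted p of 0.0468), and their sum ran from 3.65 to 6.71 CPM in Control and from 11.7 to 23.1 CPM in the libraries labelled Sox9. Of 9 platelet markers, Treml1 was at 0 in every library.

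Microglia and leukocyte markers had another order. The 12 microglia markers, 1 of which was called (C1qa, a complement chain, 2.84) and the most abundant of which, Csf1r, had a log2 fold change of 0.73, summed to 17.6 to 50.2 CPM in Control and 23.5 to 93.3 CPM in the libraries labelled Sox9, with the highest value in Sox9-labelled 1. The leukocyte markers without Coro1a, which neural cells also express, summed to 2.87 to 14.5 and 9.44 to 18.8 CPM, with 0 of the 5 tested, Coro1a included, called (2 higher at an unadjusted p under 0.05, 0 called by DESeq2), and the most abundant, Coro1a and Lcp1, had log2 fold changes of 0.09 and 0.00. The part of these cell types in the globin values was not tested.

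**Figure D5:**
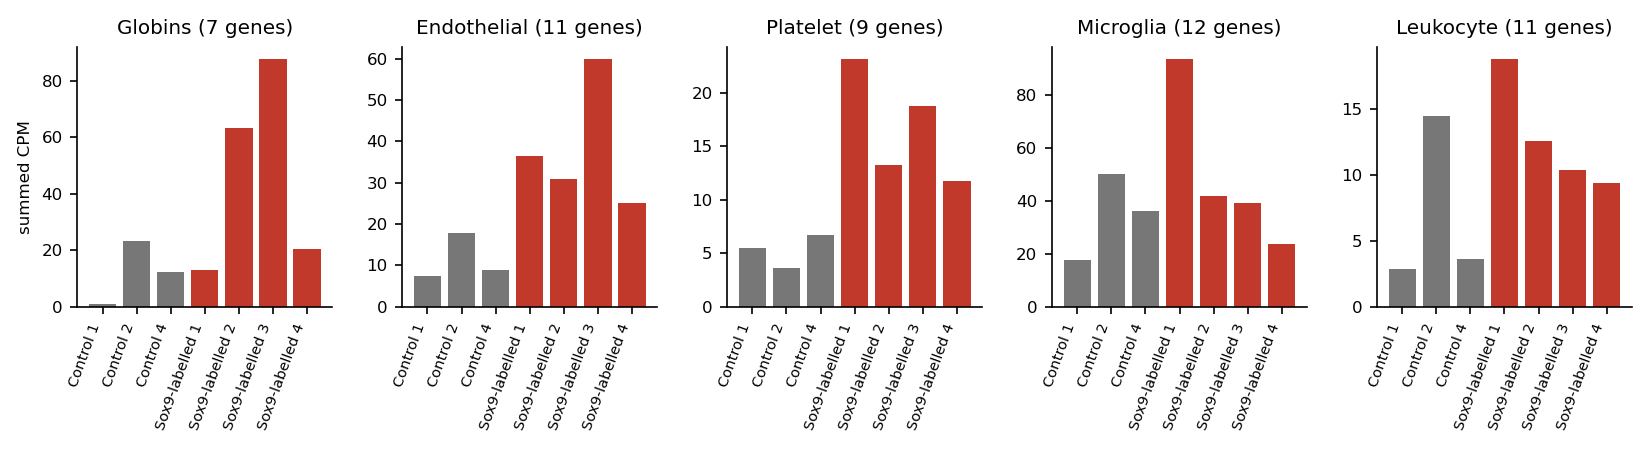
Bars give the summed CPM of the 7 globin genes and of 4 marker lists, without Slc2a1 in the endothelial and without Coro1a in the leukocyte list, in each library (grey, Control; red, labelled Sox9; each panel has its own linear axis from 0). Globins are highest in Sox9-labelled 2 and 3, platelet, microglia and leukocyte markers in Sox9-labelled 1, and endothelial markers in Sox9-labelled 3. With Coro1a the leukocyte sum is highest in Control 1 (130.0 CPM, against 105.0 in Sox9-labelled 1).

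The genes whose profile over the 7 libraries was most like that of the summed globins were sought by the mean absolute difference of centred log2 CPM. Outside the members they were Plekha7, an adherens junction protein (0.787), Car2, a carbonic anhydrase abundant in red cells and also made in glia (0.806), Adgrf5, an adhesion receptor of endothelium (0.81), and the non-coding genes Gm12968 (0.82) and 4833422M21Rik (0.845), against a median of 1.351 over 16522 genes. The adult globins were nearer (0.268 for Hba-a1 to 0.609 for Hbb-bs), as parts of the sum, and Alas2, which is not part of it, was at 0.891, with 15 genes closer. Hbb-y, although part of the sum, was at 1.621, and 15812 of the 16522 genes were closer to the globin profile than it was. Car2 was counted 4, 16 and 16 times in Control against 9, 58, 32 and 6 times, and Adgrf5 4, 20 and 4 against 5, 19, 41 and 3 times.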

How the data were processed

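Poly(A) RNA of the sorted cells was reverse transcribed from a poly-dT primer with template switching, amplified by PCR and sequenced as single reads of 75 bases. The submitters' processing notes name bcl2fastq 2.17.1.14, STAR 2.5.2b and GRCm38, and the methods name Ensembl gene models; how reads were assigned to genes, whether strand was used and how reads with several matches were treated is not given in the sources used here. The values used are the raw counts per gene deposited by the authors (38124 genes, 5641 of them at 0 in all 7 libraries). The deposited FPKM values were used for 1 check: the length that links them to the counts was the whole gene span, introns included, at 0.999 to 1.001 of it for 7 of the 8 members and 1.019 for Hbb-y, so that levels per kilobase were computed here from the counts and the GENCODE vM21 exon length instead.

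Counts were fitted with edgeR 4.0.16 (R 4.3.3; TMM, default filter on low counts, quasi-likelihood F-test, two-sided, group as the only term), with Benjamini-Hochberg adjustment across the 16522 genes that passed the filter, 6 of the 8 members among them. A gene was called at an adjusted p under 0.01, the study's threshold. Shares have exact Clopper-Pearson 95% intervals, and sums and ratios over members carry no p-value. DESeq2 1.42.0 and limma 3.58.1 served as alternatives. The scripts were tested on simulated data. The members and lists were chosen with earlier results of these data known. Beside the members and Sox9, genes were named by a rule: of each list every gene called, or the 3 with the smallest p where more than 6 were, and the 2 with the highest mean CPM, besides the 5 genes most like the globin profile (pseudocount 0.5 CPM). Klf1, Slc4a1, Epb42, Icam4 and Treml1 were named from the marker lists for their low counts, after these were seen. Some genes of the lists are not reported here by name. All libraries are labelled as biological replicates, and any 2 of a group differed well beyond sampling noise (chi-square per degree of freedom of 7.535 or more). Titles number the Control libraries 1, 2 and 4 and descriptions 1 to 3; the titles were used.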

Additional observations from a re-analysis of the deposited data

Results flagged for a closer look

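In the 4 libraries labelled Sox9, 13 measures were examined for a library standing far from the others of its group by Dixon's ratio, and 2 had one. Hba-x was at 0.412 CPM in Sox9-labelled 1 (3 counts) and at 0 in the other 3 libraries; with the others at 0 any count would stand apart in this way, so this value says little. The embryonic percentage of all globin counts was 13.7 in Sox9-labelled 1 and 1.03 to 2.09 in the other 3. Both values rest partly on the same 3 counts. Chance alone marks about 1 in 20 groups of continuous values, a rate that does not hold for counts near 0. The Control group, with 3 libraries, was too small to be examined in this way.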

How the results depend on the processing

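Of 18 alternatives, the number of members called higher (1 in the main analysis, Hba-a2) changed to 4 at an adjusted p under 0.05 and without a filter on low counts, to 0 with DESeq2 (3 at an unadjusted p under 0.05), with cyclic loess (3) and with near-identical rows summed (3), and to 0 with Sox9-labelled 2 and 3 left out together (0). Leaving out 1 library at a time gave 0 to 4. No member was called lower in any of them. Hba-a2 had a log2 fold change of 1.08 to 4.16 and an adjusted p of 3.87e-13 (no filter) to 0.368 and was called in 9 of 16 alternatives. No member has 10 counts in every library, so that stricter filter gave no value for them. Of the genes on the 7 erythroid, heme and other globin lists, 13 were called higher. The number was 3 with cyclic loess, 3 with at least 10 counts in every library and 1 with Sox9-labelled 2 and 3 left out. In that last fit Gata1, Gfi1b, Rhag and Cd36 had log2 fold changes of 3.38, 3.95, 2.81 and 3.32, adjusted p 0.0126 to 0.0192. Leaving out 1 library at a time the number was 7 to 11, with 7 without Control 2, Control 4, Sox9-labelled 1 or Sox9-labelled 3. The number called lower, 0, became 3 at an adjusted p under 0.05, 3 with DESeq2, 1 with DESeq2 size factors in edgeR, 1 with cyclic loess and 4 without a filter, and was 0 to 2 leaving out 1 library. Of all calls, 76.7% were higher in the main analysis, 56.1% with cyclic loess, 59.3% with DESeq2 and 64.7% without a filter. The cause of these changes was not tested. The mean ratio of adult to embryonic beta chains over the Control libraries, taken for this purpose with embryonic counts under 3 set to 3 in every library, was 19.2 ± 31.3 (SD, n = 3) and rests on Control 2: it was 1.09 without that library, 27.8 and 28.7 without Control 1 or 4, and 2.75 as a ratio of summed counts. On the same footing it was 16.9 in the libraries labelled Sox9 and ran from 13.7 to 21.1 under the alternatives. The alpha to beta ratio moved by less than 1 SD in both groups.

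Replicate numbers did not pair the libraries: the deviations of same-numbered libraries from their group means correlated at -0.141, 0.159 and -0.043 over 8938 genes, and Control 1 and 4 each correlated best with another number. With a replicate block by titles 1 member and 2 other genes were called higher (18 other genes at an unadjusted p under 0.05, with Gata1, Rhag and Cd36 at 3.25, 2.75 and 3.12, adjusted p 0.0121 to 0.0214), and Hbb-y reversed to a log2 fold change of 0.50 (adjusted p = 0.825). With a replicate block by descriptions, 3 members and 8 other genes were called higher, and Hbb-y was at 0.74 (adjusted p = 0.628). Leaving out 1 library at a time it ran from -1.47 to 3.45, the latter without Control 4. With 11 globin counts, Control 1 allows no firm statement on its ratios, and counts under 3 per library do not show absence.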
